A study of Mus musculus with 4 samples.

Results

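The base changes described here lie in the Sμ bait of reads that join Sμ to Sε, the switch region in front of the constant gene of IgE. Of the 18731 junctions in the 4 libraries, 4625 were joins to Sε: 2626 from Wildtype, 774 from CtIP_AA, 763 from CtIP_KO and 462 from XRCC4_KO. The deposited summaries counted at least 1 base change in the bait of 336 of these Wildtype reads and of 106, 95 and 56 reads in CtIP_AA, CtIP_KO and XRCC4_KO. A read was called primer-end when its bait alignment lay on chromosome 12 and ended within 10 bp of mm9 position 114664909, the most frequent bait end of the blunt Wildtype reads (2026 reads). All other reads were called other-end. This split was chosen by measured values, the bait alignment ends, after the number of changes in other-end reads was known. What separates primer-end from other-end reads is therefore described without a test.

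The cells were splenic CD43- B cells from mice with preassembled IgH and IgK loci, and were activated in culture by anti-CD40 (1 ng/ml) together with IL-4 (20 ng/ml) for 4 days. Their strain label reads BL6 while the growth protocol gives a 129Sv background, so the strain was not settled. Recounted changes are relative to the majority base of the reads and not to mm9. Wildtype was CD21Cre+ CtIP +/C XRCC4 +/C, CtIP_AA was CtIP T855A/T855A, CtIP_KO was CD21Cre+ CtIP C/- XRCC4 +/C and XRCC4_KO was CD21Cre+ CtIP +/- XRCC4 C/-. For CtIP_AA neither Cre nor XRCC4 is listed, and by its label it does not differ from Wildtype in 1 gene alone. As labelled, XRCC4_KO (CtIP +/-) and Wildtype (CtIP +/C) differ at CtIP as well as at XRCC4. Where the C alleles were deleted, Wildtype would itself be CtIP +/- and XRCC4 +/-. In such cells XRCC4_KO would differ from Wildtype at XRCC4 alone. CD21Cre acts late in B cell development, and the share of cells in which the C alleles were deleted was not measured here. Each genotype was 1 library with no replicate, so every p below rests on reads, bases or changes within or between libraries, not on replicates. Intervals are 95% and cover counting error only, and PCR reads without molecular identifiers are not independent molecules.

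Class switching replaces the constant region of the antibody heavy chain by joining a break in Sμ to a break in a downstream switch region. The breaks begin with activation-induced deaminase (AID), which turns C into U in single-stranded DNA, most readily where the C follows A or T and then A or G. On the complementary strand the same event appears as a change at G. Uracil repair then leaves point changes in and near the switch regions as well as breaks. CtIP starts the resection of broken ends, and XRCC4 works with DNA ligase IV to join them.

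The bait that carries these changes is printed from the first base after the nested primer, because all later positions refer to it. Positions count from 1 at the 5′ end of the primer. The primer covers bases 1 to 21, at chr12:114664889-114664909 (mm9, minus strand), and the stretch of bait shown covers bases 22 to 110, at chr12:114664800-114664888. The bait sequence is the majority base of the deposited reads, which was at least 94.2% of reads at each printed position. Capitals mark the C of AAC, AGC, TAC and TGC and the G of GTT, GCT, GTA and GCA, the same motif read on the other strand.
nested primer: cacacaaagactctggacctc
bait after the primer: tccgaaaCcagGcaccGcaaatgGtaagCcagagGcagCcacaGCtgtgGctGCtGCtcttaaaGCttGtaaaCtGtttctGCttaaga
These 89 bases hold 12 G and 9 C of the motif, and where AGCT occurs a C and a G of the motif lie side by side. Of 32851 windows of 89 bases at the upstream ends of RefSeq promoters (GRCm38.p6), 99.9% held the motif at least once, the median held 9 motif bases, and 0.152% held as many as the 21 of the bait.

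Single reads show the kind of change that was most frequent. Each sequence below runs from base 22 of the bait, is a read with exactly 1 change, and has the changed base, at position 45, in capitals.
Wildtype read, G45A: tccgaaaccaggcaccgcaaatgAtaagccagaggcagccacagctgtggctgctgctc
CtIP_KO read, G45T: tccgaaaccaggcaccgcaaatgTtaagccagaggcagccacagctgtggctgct
XRCC4_KO read, G45A: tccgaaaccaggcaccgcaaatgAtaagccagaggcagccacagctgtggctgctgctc
The Wildtype and the XRCC4_KO read carry the same substitution, end at the same bait base, 80, and join the same Sε position, chromosome 12 at 114513525. They were listed in separate libraries, and whether they come from 1 molecule was not tested.

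Across primer-end reads, a base change in the bait was an event of about 1 read in 10, and most changed reads held 1 change. In the per-read tables, 93 of 760 primer-end reads of CtIP_AA were changed (12.2%, Wilson interval 10.1 to 14.8), as were 78 of 743 in CtIP_KO (10.5%, 8.49 to 12.9) and 51 of 457 in XRCC4_KO (11.2%, 8.59 to 14.4). Of the changed reads, 68 in CtIP_AA, 59 in CtIP_KO and 41 in XRCC4_KO had exactly 1 change, and 5, 5 and 1 had 5 or more. The most changed primer-end read had 20 deposited changes in CtIP_AA, 12 in CtIP_KO and 5 in XRCC4_KO. The next were 7 and 6 in CtIP_AA, 6 and 5 in CtIP_KO, and 4 and 4 in XRCC4_KO. On recount against the bait, with gaps allowed, the most changed read of CtIP_AA had 15 changes and not 20, and the third most changed had 0 both in CtIP_KO and in XRCC4_KO. No pair of libraries differed in the share of changed reads by Fisher's exact test, two-sided and adjusted over the 3 pairs. CtIP_AA against CtIP_KO gave an odds ratio of 1.19 (0.853 to 1.66), CtIP_AA against XRCC4_KO 1.11 (0.762 to 1.63) and CtIP_KO against XRCC4_KO 0.934 (0.633 to 1.39), each with an exact adjusted p of 0.774.

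For Wildtype no per-read table was used, so the 4 libraries were compared on blunt Sε joins, joins with neither overlap nor added bases, whose reads were recounted against the bait sequence. The Wildtype library had 54 changed reads of 656 (8.23%, 6.36 to 10.6). CtIP_AA had 19 of 190 (10.0%, 6.496 to 15.1), CtIP_KO 15 of 214 (7.01%, 4.29 to 11.2) and XRCC4_KO 12 of 94 (12.8%, 7.46 to 21.0). The odds ratios against Wildtype were 1.24 (0.674 to 2.19), 0.840 (0.431 to 1.55) and 1.63 (0.761 to 3.25), with exact adjusted p of 0.663, 0.663 and 0.511. No difference was detected at these read numbers.

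Per base, the primer-end baits held 21.9 changes per 10000 bases in blunt Wildtype joins (64 changes, 17.2 to 28.0) and 26.3 in blunt CtIP_AA joins (24 changes, 17.7 to 39.2). For all Sε joins of CtIP_AA the bases could only be estimated, from the deposited total less the other-end segments, and 165 deposited changes gave 49.1 per 10000 (42.1 to 57.1). The same estimate came to 98.9% of the counted bases in CtIP_KO and 97.4% in XRCC4_KO. Deposited changes over estimated bases gave CtIP_KO a rate of 39.2 per 10000 (interval 32.9 to 46.7). For XRCC4_KO this kind of rate was 37.3 (interval 29.5 to 47.0). The recounted rates that follow are of another kind than the 49.1 of CtIP_AA. Over all Sε joins the recounted rate was 37.2 in CtIP_KO (119 changes, 31.1 to 44.5) and 34.7 in XRCC4_KO (67 changes, 27.4 to 44.1). In blunt joins alone the CtIP_KO rate was 20.4 (13.1 to 31.9) and the XRCC4_KO rate 33.1 (19.3 to 56.5). Blunt and other joins are different sets of reads, so the Wildtype rate is set beside blunt joins only. Without reads that had 5 or more changes, the recounted CtIP_KO rate over all joins was 28.7 and that of XRCC4_KO 32.2. The 49.1 of CtIP_AA still includes its 5 reads of this kind, the highest with 20 deposited changes. The bases of the primer come from the synthetic oligonucleotide and not from the cells, and their differences are given for comparison. How far they stand for errors of amplification elsewhere in the read was not tested. Wildtype had 19.6 changes per 10000 primer bases (13.5 to 28.5) and CtIP_AA had 10.0 (3.90 to 25.8). For CtIP_KO the primer rate was 10.3 (6.31 to 16.7), and for XRCC4_KO 11.5 (6.41 to 20.5). A substitution at 1 primer position made up much of it: C13T stood in 11 of 16 primer changes of CtIP_KO, 10 of 11 of XRCC4_KO and 3 of 4 of CtIP_AA, and A7T in 9 of 27 of Wildtype. In blunt Wildtype joins the rate over all bait bases was thus near that of the primer, and the intervals overlapped.

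The changes were unevenly spread over the bait, and the G of the motif had the highest rate in every library. Rates by kind of base and by position come from blunt Sε joins for Wildtype and CtIP_AA and from all Sε joins for CtIP_KO and XRCC4_KO, the reads whose sequences were used here. In Wildtype 33 of 3450 such G were changed, 95.7 per 10000 (68.2 to 134). CtIP_AA had 9 of 1079, 83.4 per 10000 (43.9 to 158), CtIP_KO 41 of 3731, 110 per 10000 (81.1 to 149), and XRCC4_KO 24 of 2239, 107 per 10000 (72.1 to 159). All other G ranged from 9.32 per 10000 in Wildtype to 37.8 in CtIP_KO. The C of the motif had 41.9 per 10000 in Wildtype, 46.7 in CtIP_KO and 32.7 in XRCC4_KO, and 0 of 751 bases were changed in CtIP_AA, a count that allows up to 39.9. Other C ranged from 5.09 to 18.1, A from 12.6 to 39.7 and T from 5.32 to 24.5 per 10000 over the 4 libraries. The motif, the textbook preference of AID, was examined after the positions of the changes had been seen.

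**Figure D1:**
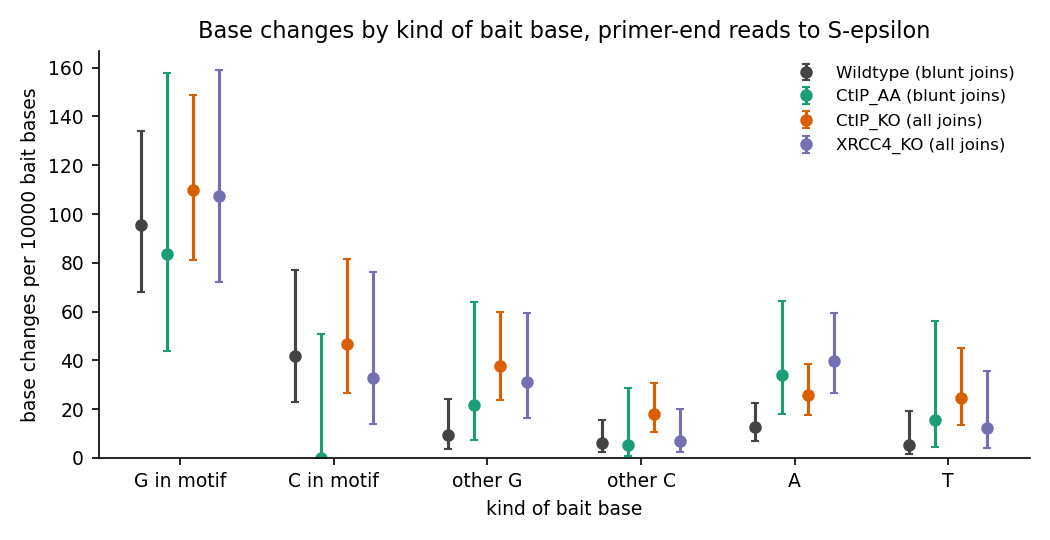
Base changes per 10000 bait bases (vertical axis) for 6 kinds of bait base (horizontal axis) in primer-end reads to Sε, with 1 point per library and 95% Wilson intervals as bars. The G of the motif lies between 83.4 and 110 in the 4 libraries, above every other kind of base.

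Because changes within 1 read are not independent, the motif was tested on reads with at most 1 change, with bases of the other G as the comparison. In Wildtype 25 of 3401 motif G and 4 of 4232 other G were changed, an odds ratio of 7.83 (2.70 to 31.0, Fisher's exact adjusted p = 1.99e-05 over the 4 libraries). CtIP_AA had 8 of 1059 and 2 of 1350 (odds ratio 5.13, 1.02 to 49.7, exact adjusted p = 0.0262), CtIP_KO 30 of 3618 and 8 of 4625 (4.82, 2.16 to 12.2, exact adjusted p = 3.93e-05) and XRCC4_KO 16 of 2160 and 5 of 2793 (4.16, 1.45 to 14.5, exact adjusted p = 0.00442). The motif G was thus higher in 4 of 4 libraries, each passing the test. The test takes bases as independent, while all libraries share 1 bait in which few G positions are compared. Its p therefore does not cover the spread among positions, and the libraries are not independent repeats of this contrast. For C the same test passed in Wildtype, with 9 of 2349 motif C against 2 of 6467 other C (odds ratio 12.4, exact adjusted p = 8.53e-04), and in XRCC4_KO, with 5 of 1474 against 2 of 4258 (7.24, exact adjusted p = 0.0291). CtIP_KO had 5 of 2493 against 5 of 6996 (2.81, exact adjusted p = 0.188). CtIP_AA had 1 changed C in such reads, outside the motif. With every read included, the C contrast of CtIP_KO also passed (odds ratio 2.59, exact adjusted p = 0.0419).

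The libraries did not differ detectably in how often the motif G was changed. In blunt joins Wildtype had 33 changes in 3450 motif G (0.957%), CtIP_AA 9 in 1079 (0.834%), CtIP_KO 9 in 1077 (0.836%) and XRCC4_KO 7 in 462 (1.52%). Against Wildtype the odds ratios were 0.871 (0.365 to 1.87), 0.873 (0.366 to 1.87) and 1.59 (0.591 to 3.69), each with an exact adjusted p of 0.856. Every change of a read was counted here, so changes within 1 read were taken as independent. The 3 mutant libraries thus showed changes at this motif at a level that these counts do not separate from that of Wildtype.

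The 5 bait positions with the most changes over the 4 libraries were all a G of the motif. Position 45, the G of GTA, was changed in 9 of 537 Wildtype reads that covered it, in 1 of 160 of CtIP_AA, in 10 of 593 of CtIP_KO and in 6 of 360 of XRCC4_KO, 158 per 10000 in all (108 to 230). Position 65, in AGCT, was changed in 6 of 302, 3 of 98, 8 of 322 and 6 of 185 reads in the same order, 254 per 10000 (170 to 378). Both positions were thus changed in each library. Positions 33, 71 and 77 had 60.1, 134 and 160 changes per 10000, from 12, 10 and 9 changed reads, and position 71 had 0 of 83 in CtIP_AA, which allows up to 361 per 10000. The 26 changed reads at position 45 were 13 to A, 9 to T and 4 to C, and the 23 at position 65 were 11 to A, 9 to T and 3 to C. Position 45 held 9.49% and position 65 held 8.39% of all changes after the primer.

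**Figure D2:**
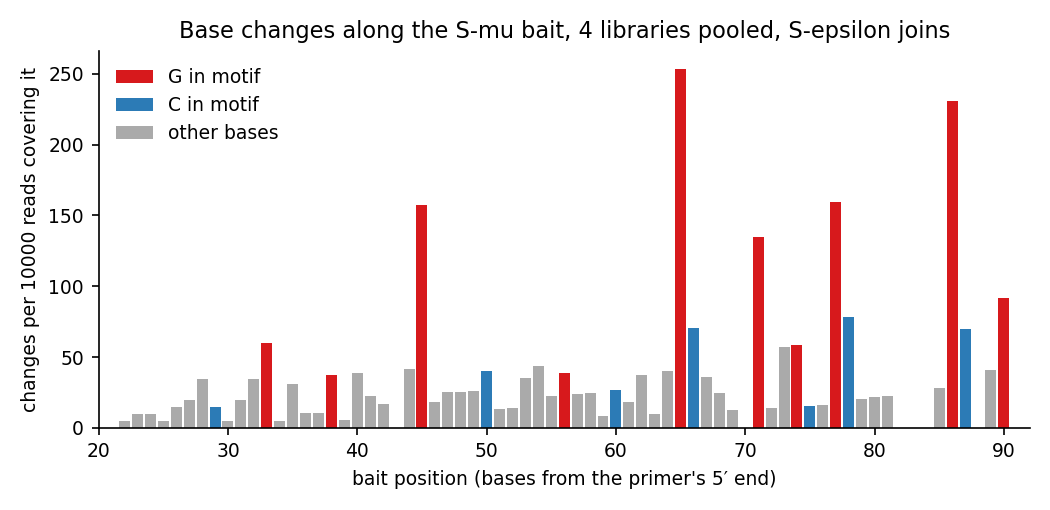
Base changes per 10000 reads covering a position (vertical axis) along the Sμ bait (horizontal axis, bases from the 5′ end of the primer), with the 4 libraries pooled and positions covered by 200 or more reads. The highest bars are motif G at positions 65, 86, 77, 45 and 71, and the other bases without a motif stay under 57 per 10000.

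Over the 10 motif G with at least 200 covering reads, the median position had 113 changes per 10000 (37.2 to 254), and 8 of the 10 reached 50. The median was 39.8 over 7 motif C, 24.4 over 9 other G, 10.4 over 13 other C, 24.9 over 18 A and 16.0 over 13 T. Of the motif C, 3 of the 7 reached 50, with 78.0 at the highest. Outside the motif 1 position did, a T with 56.7. By motif, the G of GCT had 54 changes in 3291 bases (164 per 10000, 126 to 213) and that of GTA 28 in 1882 (149, 103 to 214). The G of GCA had 24 in 5173 (46.4, 31.2 to 68.9). Positions of the motif G thus ranged from a level like that of other bases to the highest of the bait.

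Changes at the motif G were mostly to A. Pooled over the libraries, 60 of 107 were to A, 31 to T and 16 to C, and of 27 changes at the motif C, 18 were to T, 6 to A and 3 to G. The A bases had 68 changes, of which 29 were to C, 25 to T and 14 to G.

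The share of C and G among changes at primer-end baits lay above their share of bait bases in Wildtype and CtIP_KO, where the interval did not reach it. In CtIP_AA, set beside the bait bases of its blunt joins, and in XRCC4_KO the interval held it. Changes at C or G were 51 of 64 in blunt Wildtype joins (79.7%, 68.3 to 87.7), 101 of 160 in all joins of CtIP_AA (63.1%, 55.4 to 70.2), 84 of 119 in CtIP_KO (70.6%, 61.9 to 78.0) and 41 of 67 in XRCC4_KO (61.2%, 49.2 to 72.0). C and G made up 57.2% of the bait bases of blunt Wildtype joins, 56.7% of those of blunt CtIP_AA joins, and 57.1% and 57.2% over all joins of CtIP_KO and XRCC4_KO. G alone gave 57.8%, 43.8%, 49.6% and 49.3% of the changes. The most frequent single substitution was G to A in each library, with 22 in Wildtype and 32, 24 and 21 in CtIP_AA, CtIP_KO and XRCC4_KO. In CtIP_AA and CtIP_KO the next was A to C with 25 and G to C with 20, and in Wildtype and XRCC4_KO it was C to T with 12 and A to T with 11. No difference in the C or G share was detected between the mutant libraries: the odds ratio was 0.714 for CtIP_AA against CtIP_KO (0.414 to 1.22, exact adjusted p = 0.304), 1.09 for CtIP_AA against XRCC4_KO (0.575 to 2.03, exact adjusted p = 0.881) and 1.52 for CtIP_KO against XRCC4_KO (0.769 to 2.99, exact adjusted p = 0.304). This test takes changes of 1 read as independent. In reads with exactly 1 change the odds ratios were 0.747, 1.39 and 1.86 (exact adjusted p = 0.524 for each).

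Among blunt joins CtIP_AA had 13 of 24 changes at C or G (54.2%) against 51 of 64 in Wildtype, an odds ratio of 0.306 (0.0983 to 0.939) whose exact p of 0.0296 did not pass adjustment over the 3 libraries (adjusted p = 0.0889). CtIP_KO had 12 of 19 (adjusted p = 0.329) and XRCC4_KO 11 of 13 (adjusted p = 1), both by the same exact test. It too takes changes of 1 read as independent. In reads with exactly 1 change the share at C or G was 87.0% of 46 in blunt Wildtype joins, 76.5% of 68 in CtIP_AA, 81.4% of 59 in CtIP_KO and 70.0% of 40 in XRCC4_KO. Transitions, changes within the purines or within the pyrimidines, were 56.2% of the primer-end changes in blunt Wildtype joins (44.1 to 67.7). Over all joins they were 34.4% for CtIP_AA (27.5 to 42.0), 39.5% for CtIP_KO (31.2 to 48.5) and 46.3% for XRCC4_KO (34.9 to 58.1). Blunt and all joins are unlike sets, and 15 of the CtIP_AA changes came from 1 read, so these shares do not compare the genotypes. In reads with exactly 1 change they were 65.2%, 50%, 47.5% and 50%.

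The pattern at motif G was also present in joins to Sγ1 and Sμ. For these preys all joins were used in CtIP_AA and CtIP_KO and blunt joins in Wildtype and XRCC4_KO. With the libraries pooled, motif G had 102 changes per 10000 in 2046 Sε reads (84.4 to 123), 96.2 in 3453 Sγ1 reads (83.0 to 112) and 84.2 in 1959 Sμ reads (68.3 to 104). Other G had 25.5, 33.4 and 29.4 per 10000 in the same order. In blunt joins alone, the same kind of join in every library, motif G had 95.6, 82.3 and 77.8 per 10000 and other G 13.1, 27.8 and 33.9. Motif G lay above other G in each library for both preys, but by little in some. Blunt XRCC4_KO joins to Sμ had 3 of 633 motif G (47.4 per 10000) and 3 of 827 other G (36.3) changed. Blunt CtIP_AA joins to Sμ had 45.8 and 34.8, and blunt XRCC4_KO joins to Sγ1 had 74.3 and 50.7. For these preys the contrast was not tested by library. Position 65 was changed in 39 of 1627 covering Sγ1 reads (240 per 10000) and in 26 of 909 Sμ reads (286 per 10000). Within blunt joins, the share of changed Sε reads was compared with that of Sγ1 and of Sμ reads in each library. None of the 8 contrasts passed Fisher's exact test, and the lowest exact adjusted p was 0.332. In Wildtype 96 of 881 Sγ1 reads (10.9%) and 53 of 452 Sμ reads (11.7%) were changed, against 8.23% in Sε.

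**Figure D3:**
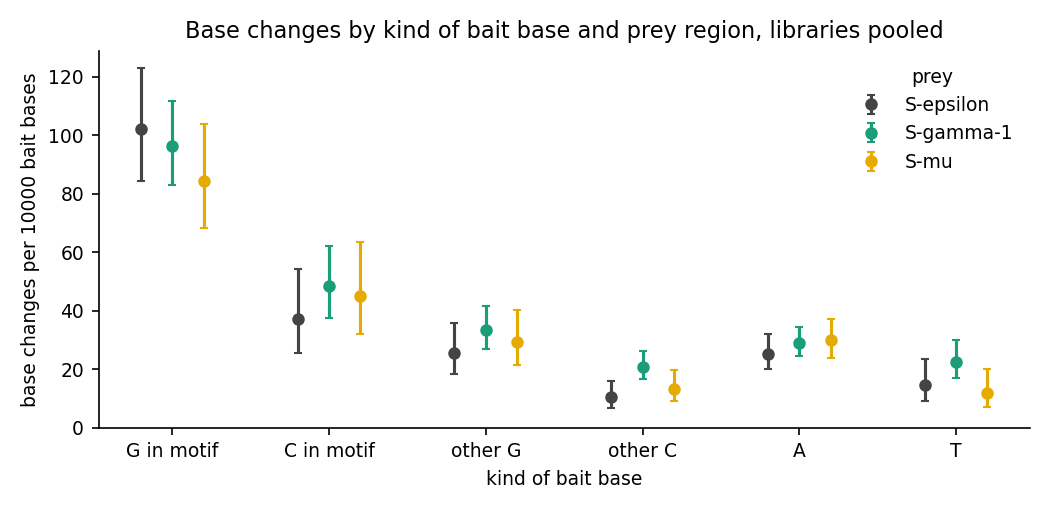
Base changes per 10000 bait bases (vertical axis) for 6 kinds of bait base (horizontal axis) in primer-end reads to Sε, Sγ1 and Sμ, with the 4 libraries pooled over the joins named above and 95% Wilson intervals as bars. Motif G is highest for each prey, at 102, 96.2 and 84.2.

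Changed reads had longer baits in both libraries whose Sε reads were all used. The median bait was 75 bases in the 77 changed reads of CtIP_KO and 60 in the 666 unchanged ones, a difference of 15 (permutation adjusted p = 6.00e-05). In XRCC4_KO it was 75 in 50 and 58 in 407 reads, a difference of 17 (permutation adjusted p = 1.30e-04). A longer bait holds more bases that can change, so this difference would arise at an equal rate per base. The test therefore does not speak to the rate, and the rate per base was also taken by length. In baits of up to 50 bases the 4 libraries, taken from Wildtype to XRCC4_KO as above, had 14.3, 11.4, 18.7 and 17.5 changes per 10000. Baits of 51 to 75 bases had 23.7, 41.8, 38.0 and 29.8, and those of over 75 bases had 22.4, 19.5, 41.8 and 44.7. The rate of the shortest baits was thus the lowest in each library, while that of the longest lay below the middle class in Wildtype and CtIP_AA. The positions 65, 71 and 77 lie outside the shortest baits, and their part in this difference was not tested.

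Counted from the join, changes were fewest in the last 5 bases of the bait, with 4 in 10230 bases (3.91 per 10000) over the 4 libraries. Bases 6 to 10 from the join had 72 changes in 10230 (70.4, 55.9 to 88.5), bases 11 to 20 had 41.9, bases 21 to 40 had 25.3 and bases further away 21.3 per 10000. Where a bait alignment ends depends on its last bases matching. The part of this in the first bin, and in the higher rate of bases 6 to 10, was not tested.

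The structure of the join did not differ detectably between changed and unchanged reads. In CtIP_KO 15 of 77 changed reads were blunt (19.5%) against 199 of 666 unchanged ones (29.9%), which gave an odds ratio of 0.568 (interval 0.293 to 1.04, exact adjusted p = 0.125). In XRCC4_KO these were 12 of 50 (24.0%) and 82 of 407 (20.1%), which gave 1.25 (interval 0.569 to 2.58, exact adjusted p = 0.578). Joins with microhomology, bases shared by bait and prey, were 50.6% of changed and 45.2% of unchanged reads in CtIP_KO, and 50% and 60.0% in XRCC4_KO.

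Insertions and deletions in the bait were rare. Primer-end reads with an insertion numbered 1 in CtIP_AA, 2 in CtIP_KO and 1 in XRCC4_KO, and 0 had a deletion, which allows shares of up to 0.395%, 0.404% and 0.656%. The pairs could not be told apart at these counts (exact adjusted p = 1 for each). The deposited summaries counted 19 reads with an insertion or deletion among all Wildtype Sε reads (0.724%, 0.464 to 1.13), 1 in CtIP_AA (0.129%), 3 in CtIP_KO (0.393%) and 1 in XRCC4_KO (0.216%). Against Wildtype the odds ratios were 0.178, 0.542 and 0.298, with exact adjusted p of 0.185, 0.445 and 0.445, a comparison made after the counts were seen.

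The other-end reads were few, 14 in CtIP_AA, 19 in CtIP_KO and 5 in XRCC4_KO, and carried 2027, 2928 and 694 of the deposited changes. Near the limit of the split, 15 listed primer-end reads ended 1 to 6 bp from the most frequent end and had at most 4 changes. The nearest 4 other-end reads ended 12 to 18 bp from it and had at most 1 change. Those 4 were bait reads whose alignment began further inside the bait. The rest, 13, 16 and 5 reads, had a bait alignment in Sγ1 (5, 7 and 1 reads), in another part of Sμ (8, 9 and 3) or, in 1 XRCC4_KO read, elsewhere on chromosome 12. Of these, 12, 15 and 5 reads began with at least 40 bases identical to the Sμ bait. Such a read therefore held 3 segments: the primer end of Sμ, a middle segment that was aligned as bait, and Sε. In 1 XRCC4_KO read the middle segment, chr12:114664732-114664759, was bases 151 to 178 of the bait itself, with 72 read bases before it. It was counted with the middle segments.

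**Figure D4:**
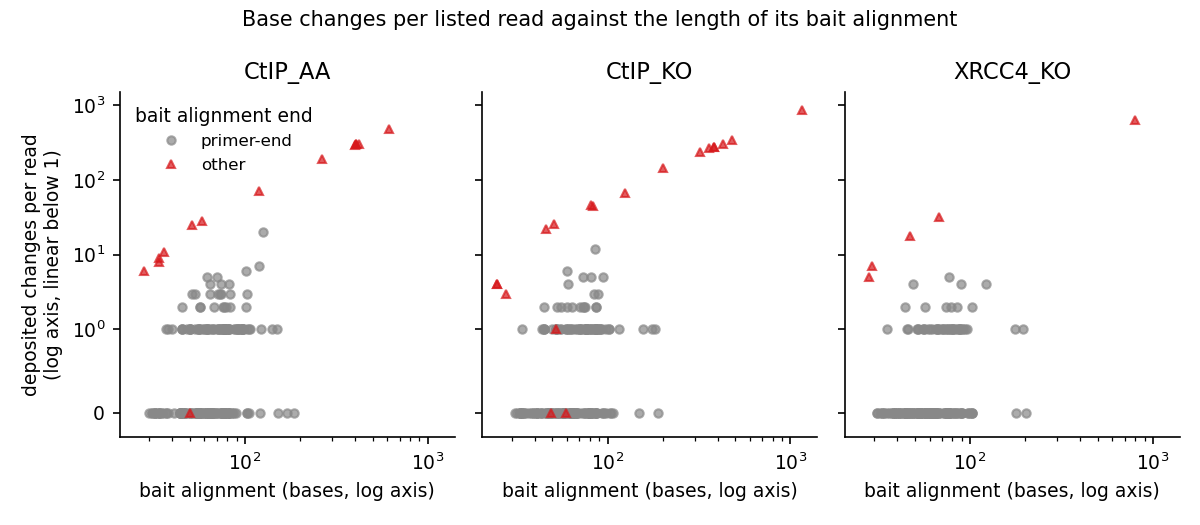
Deposited base changes per listed read (vertical axis, logarithmic above 1) against the length of its bait alignment in bases (logarithmic horizontal axis), 1 panel per library. Primer-end reads (circles) reach at most 20 changes, while other-end reads (triangles) rise with alignment length up to 479, 865 and 632 changes.

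The shortest read with a Sγ1 segment from each library is printed from its first base to the end of its Sε alignment, because it shows what was counted as changed bait. Capitals mark the Sγ1 segment that was aligned as bait. The coordinates are those deposited. The CtIP_AA segment without its last base is identical to the end of the XRCC4_KO segment, though their coordinates do not overlap. Whether these placements are unique was not tested. The Sε alignment takes the last 61 bases of the CtIP_AA read, after 5 bases that belong to neither alignment, and the last 78 of the CtIP_KO read. In the XRCC4_KO read it takes the last 146, of which the first 2 are shared with the Sγ1 segment.
CtIP_AA, Sγ1 segment chr12:114574891-114574926: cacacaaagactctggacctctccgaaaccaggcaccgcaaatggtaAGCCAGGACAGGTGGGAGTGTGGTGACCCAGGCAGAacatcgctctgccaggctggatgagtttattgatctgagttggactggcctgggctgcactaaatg
CtIP_KO, Sγ1 segment chr12:114572362-114572444: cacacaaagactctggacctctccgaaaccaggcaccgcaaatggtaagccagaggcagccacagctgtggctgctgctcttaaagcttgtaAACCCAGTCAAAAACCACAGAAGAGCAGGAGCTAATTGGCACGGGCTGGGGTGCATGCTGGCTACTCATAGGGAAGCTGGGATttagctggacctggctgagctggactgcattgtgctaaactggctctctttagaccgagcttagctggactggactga
XRCC4_KO, Sγ1 segment chr12:114574255-114574301: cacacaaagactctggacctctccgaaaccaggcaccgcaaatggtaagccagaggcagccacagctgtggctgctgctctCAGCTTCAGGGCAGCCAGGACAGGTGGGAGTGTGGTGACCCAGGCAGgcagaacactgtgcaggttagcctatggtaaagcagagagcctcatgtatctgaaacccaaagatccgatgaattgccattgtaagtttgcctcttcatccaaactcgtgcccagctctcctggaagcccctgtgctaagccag
The first 53, 95 and 81 bases of these reads were identical to the bait, and the deposited changes were 11 in the 36 segment bases of the CtIP_AA read, 45 in 83 of the CtIP_KO read and 18 in 47 of the XRCC4_KO read.

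Of the middle-segment bases beyond the length of the primer, 78.1% were deposited as changed for CtIP_AA (76.5 to 79.7), 76.4% for CtIP_KO (74.99 to 77.7) and 79.95% for XRCC4_KO (77.2 to 82.5). For the 20 segments no longer than the bait sequence, the segment was laid base by base beside the Sμ bait with no gap. This gave 606 differences in 778 bases (77.9%), against 582 deposited changes (74.8%), and the counts of single segments differed by up to 20. The 4 reads whose bait alignment only starts later in the bait were left out. Laid beside the bait in the same way they gave 19 to 30 differences, against 0 or 1 deposited changes. Sequences with no relation to each other also differ at most of their positions, so the nearness of these shares was not taken as a test of how the deposited changes were counted.

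The summaries count all bait ends, other-end reads included. The deposited rates of Wildtype, CtIP_AA, CtIP_KO and XRCC4_KO were 207, 605, 858 and 389 changes per 10000 bases. In the deposited summaries C and G held 39.2%, 29.7%, 26.9% and 20.9% of the changes, in that order. When the primer-end changes were taken out of the summaries, C and G held 27.0% of the 2032 remaining changes in CtIP_AA, 25.2% of 2933 in CtIP_KO and 17.1% of 697 in XRCC4_KO. In XRCC4_KO 1 read held 632 of these 697 changes, out of 764 deposited in all. The XRCC4_KO shares and rates of this paragraph therefore rest largely on that read. The most changed read held 865 of the 2933 in CtIP_KO and 479 of the 2032 in CtIP_AA. By base type the deposited T bases had the highest rate in 3 of 4 libraries, 433 per 10000 in Wildtype, 1412 in CtIP_AA and 1878 in CtIP_KO, while in XRCC4_KO it was A with 726. Transitions were 38.8%, 36.6%, 39.5% and 45.5% of the deposited changes. Wildtype changes over all joins were not split by bait end, so the part of other-end reads in its summary is not known. Its 7.08 changes per changed read lay below the 20.7, 32.1 and 13.6 of the mutant libraries.

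**Figure D5:**
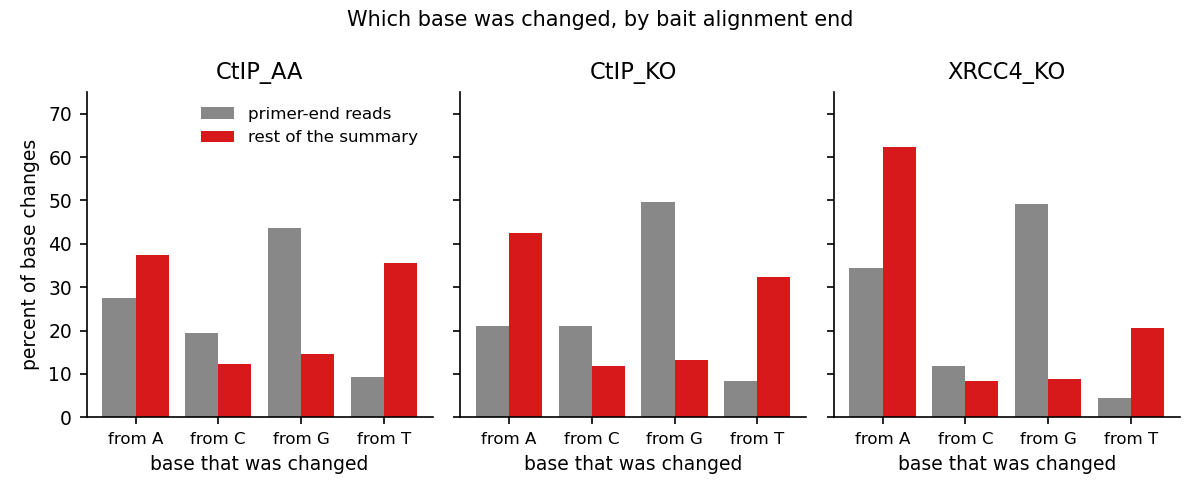
Percent of base changes (vertical axis) by the base that was changed (horizontal axis) for primer-end reads and for the rest of the deposited summary, 1 panel per library. Changes from G make up 43.8%, 49.6% and 49.3% of the primer-end changes and 14.7%, 13.3% and 8.75% of the rest. In XRCC4_KO 632 of the 697 changes of the rest come from 1 read.

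Reads with a middle segment are defined by the bait end that set the split, so their shares are given without a test. The CtIP_AA library had 13 of 774 Sε reads of this kind (1.68%, 0.984 to 2.85). CtIP_KO had 16 of 762 (2.10%, 1.30 to 3.38) and XRCC4_KO 5 of 462 (1.08%, 0.463 to 2.51). Some shared their positions: 13 reads of CtIP_AA were 12 distinct joins and 16 of CtIP_KO were 14. Joins counted as distinct could still share some positions. CtIP_KO reads with the segments chr12:114573230-114574386 and chr12:114574007-114574386 shared 1 segment end and each had 43 bases before the segment. Whether such reads come from 1 event was not tested. In blunt Sε joins, where Wildtype can be set beside the others, 3 of 659 Wildtype reads had a middle segment (0.455%), 1 of 191 in CtIP_AA (0.524%), 7 of 221 in CtIP_KO (3.17%) and 1 of 95 in XRCC4_KO (1.05%). Other-end reads among blunt Sγ1 joins were ordered differently, with 42 of 923 in Wildtype (4.55%), 4 of 312 in CtIP_AA (1.28%), 5 of 247 in CtIP_KO (2.02%) and 9 of 209 in XRCC4_KO (4.31%).

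Some reads began with 6 or more extra bases before the primer, and their share differed among libraries. Reads of this kind were 33.2% of the blunt Wildtype reads, 10.8% of the CtIP_AA primer-end reads, 12.2% in CtIP_KO and 27.4% in XRCC4_KO. The same hexamers recurred across libraries. CCGTTA stood in 193 Wildtype reads and in 22, 19 and 44 of CtIP_AA, CtIP_KO and XRCC4_KO. In the same order GGACTA stood in 9, 30, 25 and 31 reads, and AGGCTG in 8, 23, 34 and 44. The sources used here do not state what these bases are. Their bearing on which library a read came from was not tested. The share of changed reads among them and among the rest was 5.96% against 9.36% in Wildtype, 6.10% against 13.0% in CtIP_AA, 7.69% against 10.7% in CtIP_KO and 8.80% against 11.7% in XRCC4_KO. None of these differences passed Fisher's exact test (adjusted p of 0.348, 0.303, 0.464 and 0.464, exact). Without these reads the motif G still exceeded other G in each library, with odds ratios of 7.45, 5.10, 4.36 and 3.54 and exact adjusted p of 3.94e-04, 0.0335, 3.92e-04 and 0.0335.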

How the data were processed

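Junction reads of 1 library per genotype were used. Per the submitters' processing notes the tool was Bowtie2 and the build mm9. For the calling of changes, no method is given in the sources used here. The authors deposited a summary per library with counts of changes, bases and changed reads, and for 3 libraries a table with the counts per read, beside alignment coordinates. The per-read counts summed to the summary totals and equalled mismatches after the 21 primer bases in 201 of 202, 181 of 182 and 178 of 180 primer-end reads. Unlisted reads had no change in CtIP_KO (561) and XRCC4_KO (277), and the 558 of CtIP_AA were taken as primer-end and unchanged. A CtIP_KO read with an emptied line was left out. The bait was rebuilt as the majority base of primer-end reads, and reads were recounted against it, with gaps (open -4, extend -1, match 1, mismatch -1) tried where lengths differed or 5 or more mismatches were found. The recount gave 160, 119 and 67 changes against 165, 124 and 70 deposited, and was tested on simulated data. Fisher's exact tests were two-sided with conditional odds ratios, intervals were Wilson's, Benjamini-Hochberg adjustment used 0.05, and medians were compared over 100000 permutations, with Python 3.11.15, numpy 2.4.6, scipy 1.17.1, biopython 1.88 and matplotlib 3.10.9. Alternatives changed the window, the reads and the changes counted. By rule no gene was named, and only the 3 most changed reads per library and the 5 most changed positions were singled out. The members and lists were chosen with earlier results of these data known.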

Additional observations from a re-analysis of the deposited data

How the results depend on the processing

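Of 134 alternative values, 111 kept their direction and side of the threshold or stayed within the interval of the reported value. The others were 11 odds ratios that crossed 1, none of which passed the test in either setting, 11 values with no test, and 1 odds ratio that passed only in the alternative, motif C against other C in CtIP_KO with every read (2.59). With 2 or more changes required, CtIP_KO against XRCC4_KO had an odds ratio of 1.17 for changed primer-end reads, CtIP_KO against Wildtype 1.54 and XRCC4_KO against Wildtype 0.871 for blunt reads, and Sε against Sγ1 1.52 in CtIP_KO and 0.349 in XRCC4_KO. With distinct changes counted once, CtIP_AA against XRCC4_KO had 0.9495 for changes at C or G. Joins with microhomology in place of blunt ones gave 1.24 in CtIP_KO and 0.669 in XRCC4_KO, and insertions gave 1.28 in CtIP_KO. Without reads with 6 or more extra bases, an alternative added after the data were seen, as were all on blunt joins and motifs, the blunt contrast of XRCC4_KO was 0.926 and Sε against Sγ1 in CtIP_AA 1.17. The rate moved to 207, 605, 858 and 389 per 10000 over all bait ends in the deposited summaries, which in Wildtype and CtIP_AA also hold joins that are not blunt, and to 28.7 in CtIP_KO without reads of 5 or more changes. Transitions moved to 65.2%, 50%, 47.5% and 50% in reads with 1 change. Over every primer-end change they moved to 56.2% in blunt Wildtype joins and 34.4% in all CtIP_AA joins. Causes were not tested beyond this. No paired analysis was possible because each genotype is 1 library and the labels give no replicate numbers, so no replicate could be left out. Read numbers limit contrasts among libraries: only large differences could have been detected.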
